A study of Mus musculus with 24 samples.

Results

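The 5 libraries described here hold messenger RNA of kidney endothelial isolates from female FVB mice, an inbred strain. They were chosen by their labels, 3 from mice with ischemic acute kidney injury against 2 from sham mice labelled as having no injury, out of 24 libraries in the series. After enzymatic digestion of the kidney, cells carrying CD31, the surface protein that Pecam1 encodes and endothelium displays, were pulled out on microbeads. Injured and sham mice shared strain, sex and isolation, and no transgene, drug or other agent is named for either. Male endothelial isolates (3 injured, 3 sham) and microdissected proximal tubules of females (3 and 3), of the same strain, serve as comparisons. The labels describe 3 mice of each sex per group, so the endothelial libraries are taken as separate mice, and the sham female endothelial group has 2. All 5 carry a number in their title that a female tubule library also carries, so those pairs may come from the same mouse, which the labels do not say.

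Endothelial cells line the capillaries of the glomerulus, the capillaries around the tubules and the vasa recta of the medulla. After ischemia they are known to display adhesion molecules such as E-selectin, P-selectin, Icam1 and Vcam1 that capture leukocytes, to loosen their junctions, and to shift their control of clotting and of vessel tone. Tubule cells deprived of oxygen are known to switch on a separate set of genes, among them Havcr1 (kidney injury molecule KIM-1), Lcn2 (the iron-siderophore carrier NGAL) and Clu (the chaperone clusterin).

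Each of the 5 libraries held 37237573 to 54906972 estimated reads, with 8.95 to 11.9% in mitochondrial genes. Xist, the X-inactivation transcript, lay between 37.5 and 138 CPM (reads relative to the normalized library size), against 0 to 0.403 CPM in the 6 male endothelial libraries. Of 4 genes on the Y chromosome, Eif2s3y had 0 reads in the female libraries, Ddx3y 0 to 0.0236 CPM, Kdm5d 0.069 to 0.485 CPM and Uty 0.207 to 2.52 CPM, against at least 34.2, 44.8, 8.53 and 17.4 CPM in the males, so no library of one sex overlapped the other. The endothelial label held in part. Pecam1 was present per transcript length at 54.7 and 20.4 TPM (a level that accounts for transcript length) in sham libraries 1 and 2, and at 27.3, 40.7 and 20.6 TPM in injured libraries 1 to 3. Umod, the most abundant product of the thick ascending limb, stood at 3143 to 5483 TPM in the same libraries, and Lrp2, the megalin of the proximal tubule, at 40.2 to 156.6 TPM. The 21 genes of endothelial identity summed to 1246 to 3320 CPM against 214 to 675 CPM in the female tubule libraries on a common scale. The 20 proximal tubule markers summed to 25660 to 36390 CPM against 29510 to 42300 CPM. The isolates were therefore higher in endothelial RNA than the tubules and still held tubule RNA in quantity. In such bulk samples fewer cells of a type and less RNA per cell cannot be told apart.

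The endothelial signal overlapped between the groups. The endothelial identity list summed to 3373 and 1627 CPM in sham 1 and 2, and to 2445, 2897 and 1351 CPM in injured 1 to 3. Sham 1 stood at the top and injured 3 at the bottom, and sham 2 lay inside the injured range. Over all genes, sham 1 correlated more closely with injured 2 (Pearson r = 0.992 on log2 CPM, across genes, which are not independent) than with sham 2 (r = 0.985). Sham 1 also had the most genes with a read, 25923, and was the deepest library at 54906972 estimated reads. Sham 2 had the fewest genes, 20763, and was the shallowest library at 37237573 estimated reads.

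**Figure D1:**
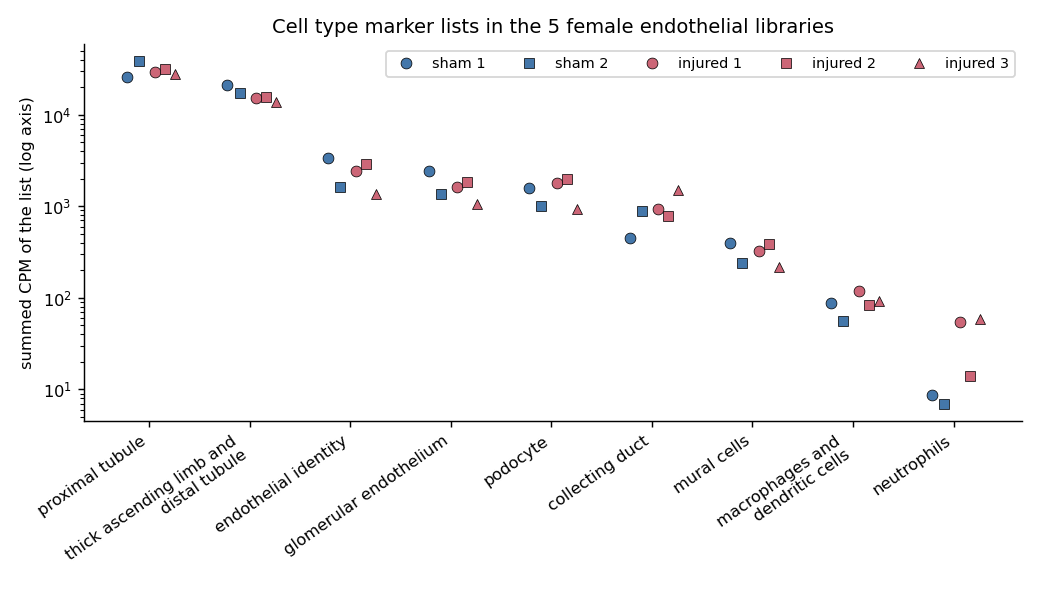
Summed CPM of 9 cell type marker lists (log axis) in each of the 5 libraries, blue for sham and red for injured. The proximal tubule and thick ascending limb lists stand above the endothelial ones in every library, and the endothelial identity sums of the groups overlap, 1627 to 3373 CPM in sham and 1351 to 2897 CPM in injured libraries.

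Which genes differed between injured and sham isolates was tested with edgeR's quasi-likelihood test over 19910 genes, in a fit of all 11 endothelial libraries. No gene passed at an adjusted p under 0.05 (0%), and the smallest adjusted p was 0.35. At an unadjusted p under 0.05 there were 475 genes (2.39%), 305 higher (1.53%) and 170 lower (0.854%) after injury. The median log2 difference over all genes was 0.01, and for the 11136 genes at 5 CPM or more the median standard error was 0.324. DESeq2 on the same counts called 33 genes, 28 higher and 5 lower, of which 16 had at most 3 reads in one of the groups. Without the filter on low counts edgeR called 18, and with only the 5 libraries in the fit it called 3. Separately, all 3 injured libraries lay above both sham libraries for 2526 genes (12.7%) and below both for 2394 (12%). Counts of members given below are read against these shares, and a member whose value is given did not pass the adjusted test unless said otherwise.

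The endothelial genes themselves gave no separation of the groups. Of the 21 endothelial identity genes 0 had all injured libraries above or below sham, 0 had an unadjusted p under 0.05 in either direction, and their median log2 difference was -0.209. Pecam1 itself read 220.9 and 106.4 CPM in sham and 143.5, 169.9 and 106.3 CPM in injured libraries, a log2 difference of -0.23 ± 0.49 (SE). Kdr, the main VEGF receptor, read 440.4 and 181.9 CPM in sham and 291.1, 350.8 and 87.0 CPM in injured libraries, a difference of -0.36 ± 0.68. For both genes sham 1 was the highest library and injured 3 the lowest. Cdh5, the VE-cadherin of endothelial junctions, differed by -0.21 ± 0.71, and Nos3, the endothelial nitric oxide synthase, by -0.45 ± 0.73. The median of the identity list depended on the sham library used: it was -0.626 without sham 2 and 0.461 without sham 1. Without sham 1 the differences of Pecam1, Kdr, Cdh5 and Nos3 turned positive, at 0.40, 0.42, 0.46 and 0.27.

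The glomerular and peritubular endothelial markers were likewise mixed. Ehd3, a membrane-trafficking ATPase enriched in glomerular endothelium, read 339.7 and 109.5 CPM in sham and 226.2, 275.6 and 77.2 CPM in injured libraries. Plvap, which forms the diaphragms of fenestrated peritubular capillaries, read 115.5 and 64.4 CPM in sham and 79.8, 59.4 and 166.6 CPM in injured libraries. Neither gene separated the groups, and injured 3 was the lowest library for Ehd3 and the highest for Plvap. Of 12 glomerular markers 2 lay below sham in all injured libraries, among them Lpl, the lipoprotein lipase, at 608.1 and 547.1 CPM in sham and 294.3, 386.3 and 450.3 CPM in injured libraries. The log2 difference of Lpl was -0.62 ± 0.36 with an unadjusted p of 0.117.

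Adhesion molecules that endothelium shows to leukocytes were not separated either. Of 12 tested, 1 (Alcam, a homophilic adhesion receptor) had all injured libraries above sham, against 12.7% of all genes, and 0 had an unadjusted p under 0.05. Vcam1 read 19.7 and 13.0 CPM in sham and 34.8, 20.2 and 17.1 CPM in injured libraries, a log2 difference of 0.56 ± 0.72. Icam1 read 33.3 and 27.2 CPM in sham and 42.8, 25.0 and 28.4 CPM in injured libraries, a difference of 0.08 ± 0.55. Only injured 1 stood above both sham libraries in Icam1. Sele, encoding E-selectin, ranged from 1.55 to 4.26 CPM in sham and from 0.495 to 5.22 CPM in injured libraries, and Selp, encoding P-selectin, stayed under 0.46 CPM in all 5.

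None of the listed genes of clotting, vessel tone, VEGF or Notch signaling or the endothelial barrier had an unadjusted p under 0.05 with edgeR, and none was called by DESeq2. Of 17 coagulation and fibrinolysis genes 1 lay above and 3 below, with a median of -0.086. Thbd, the thrombin receptor thrombomodulin, read 165.2 and 61.0 CPM in sham and 76.0, 79.0 and 58.1 CPM in injured libraries. Vwf, the platelet-tethering von Willebrand factor, was lower in all injured libraries at 2.22 to 4.22 CPM against 5.34 and 6.60 CPM, with a difference of -0.78 ± 0.80 that did not pass. Per transcript length Vwf overlapped between the groups, at 0.4296 and 1.057 TPM in sham and 0.6897, 0.5358 and 0.7803 TPM in injured libraries. Of 20 vascular tone genes 1 lay above and 0 below, and of 15 genes of VEGF, angiopoietin and neuropilin signaling 1 lay above and 0 below. Of 13 Notch signaling genes 0 lay above or below. Of 20 junction and barrier genes 5 lay below, a larger share than the 12% of all genes, and 0 above, with differences down to -0.725. The nearest to the threshold among them were Pkp4, an armadillo-repeat junction protein, at -0.40 ± 0.22 and Afdn, the actin-linking afadin, at -0.47 ± 0.27. Per transcript length Afdn overlapped between the groups, at 52.29 TPM in sham 2 and 55.38 TPM in injured 2, while Pkp4 did not overlap. The median of the junction list depended on the sham library used: it was -0.378 without sham 2 and 0.0302 without sham 1.

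Complement and acute phase genes were the pathway list with the second largest share of members above sham. Of 23 tested, 9 had all injured libraries above both sham libraries and 0 below, and 7 had an unadjusted p under 0.05, all higher. Their median log2 difference was 0.90 against 0.01 over all genes, and over all alternative settings it ranged from 0.40 to 1.67. These members were chosen with earlier results of these data known, so their count is not independent evidence. The list shares Lcn2 with the tubular injury list. C3, the central complement component on which its activation pathways converge (chromosome 17, 57203970 to 57228136 of GRCm38, minus strand), read 4.65 and 7.52 CPM in sham and 189.5, 75.0 and 162.4 CPM in injured libraries. Every injured library lay far above both sham libraries. The difference was 4.55 ± 0.98 on the log2 scale with an unadjusted p of 0.00068 and an adjusted p of 1.00. DESeq2 called C3 with an adjusted p of 1.99e-05. Over 19 alternatives that p ranged from 1.99e-05 to 1.00 and passed in 3, while the direction was the same in 19.

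C4b, a component of the classical and lectin pathways of complement (chromosome 17, 34728380 to 34743882), read 0.969 and 2.27 CPM in sham and 6.84, 5.67 and 9.08 CPM in injured libraries. Its log2 difference was 2.17 ± 0.50, and its adjusted p was 1.00 with edgeR and 0.0113 with DESeq2. Saa1, the acute phase protein serum amyloid A, had 0 reads in both sham libraries and 565 in the injured ones, at 2.55, 0.469 and 10.2 CPM. Against a floor of 3 reads over the sham group it was at least 129-fold higher, a bound that covers counting error only. DESeq2 called Saa1 with an adjusted p of 0.0121, and Saa1 passed in 2 of 19 alternatives. Injured 2 was the lowest injured library for C3, C4b and Saa1 alike.

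Of 20 tubular injury genes 11 lay above sham in all injured libraries and 0 below, and 7 had an unadjusted p under 0.05, all higher. This was the largest share of any list, and the median log2 difference was 1.09, between 0.89 and 1.23 over all alternative settings. The list was chosen with earlier results of these data known, so its count is not independent evidence of its direction. Lcn2 (chromosome 2, 32384633 to 32388252, minus strand) read 1.504 and 3.62 CPM in sham and 41.9, 6.98 and 55.0 CPM in injured libraries, a difference of 3.77 ± 0.86. Its adjusted p was 1.00 with edgeR and 0.000577 with DESeq2, and ranged over the alternatives from 0.000577 to 1.00. Havcr1 (chromosome 11, 46735080 to 46779578) read 1.09 and 1.81 CPM in sham and 49.7, 6.69 and 25.0 CPM in injured libraries, a difference of 4.24 ± 1.43. Clu read 64.2 and 115.6 CPM in sham and 464.4, 198.7 and 1115 CPM in injured libraries, a difference of 2.72 ± 0.81. In these genes injured 2 was again the lowest injured library, and it still lay above both sham libraries.

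Spp1, the secreted phosphoprotein osteopontin, stood at 971.1 and 1378 CPM in sham and at 3686, 2093 and 4109 CPM in injured libraries, a difference of 1.49 ± 0.45. Lgals3, the sugar-binding galectin-3, stood at 18.3 and 23.3 CPM in sham and at 35.1, 35.9 and 55.2 CPM in injured libraries, a difference of 1.02 ± 0.30. Neither gene passed the adjusted test. Per transcript length Lgals3 overlapped between the groups, at 55.38 and 49.55 TPM in sham and 38.1, 67.73 and 82.8 TPM in injured libraries. Over the alternatives the difference of Lgals3 ranged from 0.274 to 1.205. The 20 proximal tubule markers summed to 26070 and 38520 CPM in sham and to 29080, 31420 and 28110 CPM in injured libraries, with none of them above sham in all injured libraries, 3 below and none at 0. Whether tubule RNA in the isolates contributed to the values of the injury genes was not tested. The count of called genes was 0 without a covariate. It was also 0 with the mean level of the proximal tubule markers or of the endothelial identity genes as a covariate. A count that starts at 0 says nothing on that question.

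**Figure D2:**
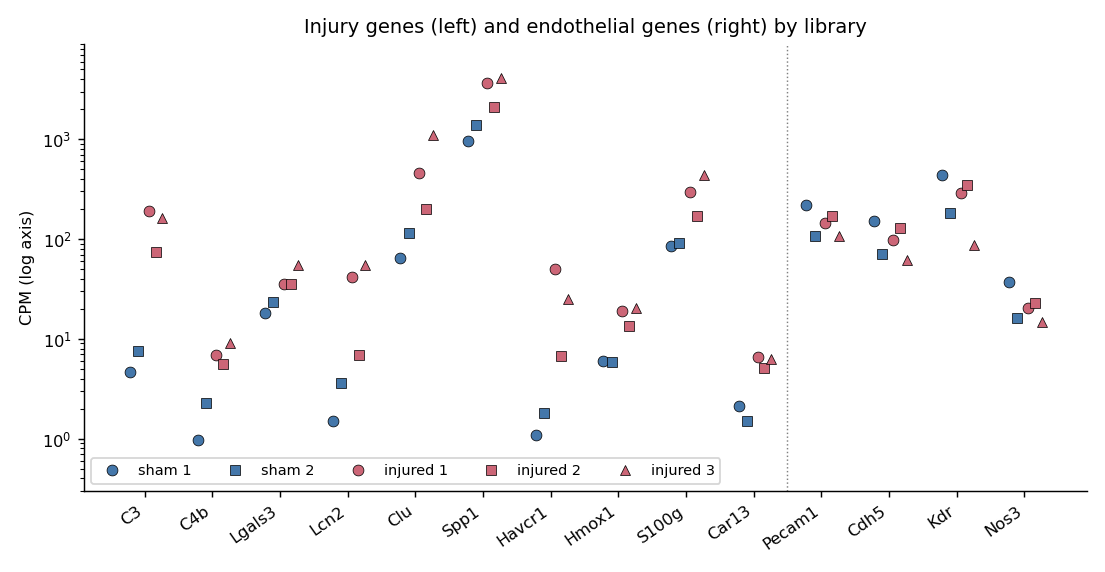
CPM (log axis) of 10 genes of injury and 4 endothelial genes in each of the 5 libraries, blue for sham and red for injured. For C3 the injured libraries lie at 75.0 to 189.5 CPM above both sham libraries at 4.65 and 7.52 CPM, while for Pecam1 the injured range of 106.3 to 169.9 CPM falls within the sham range except for its lower end.

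The 12 protein-coding genes with the smallest p among those higher in every injured library, and averaging 5 CPM or more in the injured group, included C3, Lcn2 and C4b. First stood Car13, a cytosolic carbonic anhydrase (chromosome 3, 14641727 to 14663002), with 2.14 and 1.49 CPM in sham and 6.65, 5.14 and 6.23 CPM in injured libraries. Its difference of 1.72 ± 0.32 had an unadjusted p of 0.000243, and its adjusted p was 1.00 with edgeR and 0.000189 with DESeq2, the lowest of its alternatives. S100g, the calcium buffer calbindin-D9k of calcium-transporting epithelia (chromosome X, 162961992 to 162964599, minus strand), read 85.6 and 92.3 CPM in sham and 295.1, 171.9 and 440.8 CPM in injured libraries. The sham libraries of S100g lay close together, and its difference was 1.77 ± 0.36. Smpdl3b, a membrane-anchored relative of acid sphingomyelinase, differed by 1.72 ± 0.41, S100a11, a calcium-binding protein that partners annexins, by 0.97 ± 0.24, and Sprr1a, a small proline-rich protein of stressed epithelia, by 5.58 ± 1.46. Sprr1a read 0 and 0.258 CPM in sham and 9.04, 0.490 and 7.14 CPM in injured libraries, so injured 2 was close to sham 2. DESeq2 also called S100g, Smpdl3b, S100a11 and Sprr1a, with adjusted p of 0.00378, 0.0306, 0.0422 and 0.00268. For these genes the highest adjusted p over the alternatives was 1.00.

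Mgst1, a membrane-bound glutathione transferase, read 36.2 and 38.1 CPM in sham and 112.9, 59.3 and 144.4 CPM in injured libraries, a difference of 1.51 ± 0.42. Hmox1, the heme-degrading heme oxygenase 1, read 6.05 and 5.89 CPM in sham and 18.9, 13.3 and 20.5 CPM in injured libraries, a difference of 1.56 ± 0.43. Chrnb1, a subunit of the muscle acetylcholine receptor, differed by 1.17 ± 0.31. None of these 3 was called with edgeR or DESeq2.

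The 12 protein-coding genes with the smallest p among those lower in every injured library had smaller differences, from -0.61 to -1.47. Pet117, an assembly factor of cytochrome c oxidase (chromosome 2, 144368996 to 144373721), read 5.68 and 5.57 CPM in sham and 2.19, 2.26 and 1.86 CPM in injured libraries. Its difference of -1.42 ± 0.33 had an adjusted p of 1.00 with edgeR and 0.0205 with DESeq2, and 1.00 was the highest over the alternatives. The Pet117 record overlaps Kat14 on the same strand, so reads of the overlap could be split between them. Slc22a26, a transporter of the organic anion family, read 27.1 and 21.96 CPM in sham and 6.79, 14.1 and 5.68 CPM in injured libraries, a difference of -1.47 ± 0.47. Nnt, which makes mitochondrial NADPH, read 120.6 and 125.0 CPM in sham and 72.2, 78.1 and 64.2 CPM in injured libraries, a difference of -0.78 ± 0.25. A second record named Nnt overlaps it. Tmem86a, a lysoplasmalogenase, differed by -0.89 ± 0.29, and Tsc1, a brake on the growth kinase mTORC1, by -0.73 ± 0.27.

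Ppargc1b, a coactivator of mitochondrial genes, differed by -0.86 ± 0.32, Perm1, a regulator of oxidative metabolism, by -1.14 ± 0.44, and Atp5k, a small subunit of ATP synthase, by -0.64 ± 0.24. The 25 listed genes of the respiratory chain and citric acid cycle did not share this direction: 2 lay above sham, 1 lay below, and their median was 0.08. Zfp704, a zinc finger protein, differed by -1.004 ± 0.33, Fam107a, an actin-associated protein, by -0.61 ± 0.21, and the olfactory receptor record Olfr767 by -0.93 ± 0.34. The remaining gene was one of 2 overlapping records of Zc3h11a, treated below with the other.

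Of the lists of stress, inflammation, cytoskeleton and cell surface genes, several had members above sham in a larger share than the 12.7% of all genes. For 20 genes of the integrated stress and unfolded protein responses 7 lay above and 0 below, with a median of 0.37. Psat1, of serine synthesis, read 10.4 and 21.0 CPM in sham and 63.7, 33.5 and 71.0 CPM in injured libraries, a difference of 1.84 ± 0.64, and Xbp1, a transcription factor of the unfolded protein response, differed by 0.66 ± 0.30. For 23 cytoskeleton, YAP and SRF targets 8 lay above and 2 below, with Tubb2a, a beta-tubulin, at 0.67 ± 0.26. For 14 glycocalyx and caveolae genes 5 lay above and 1 below, but their median was -0.01. That median was 0.155 without sham 1 and -0.0796 without sham 2. Among them Cav2, a caveolin, read 43.7 and 56.7 CPM in sham and 75.2, 77.0 and 85.1 CPM in injured libraries. For 26 chemokines and NF-kB targets 6 lay above and 1 below. The monocyte chemokine Ccl2 was at 0.134 and 0.0861 CPM in sham and 2.02, 0.571 and 1.96 CPM in injured libraries, low levels throughout, with a difference of 3.73 ± 1.28. The interferon-induced chemokine Cxcl10 differed by 1.24 ± 0.50.

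For 19 NRF2 targets and iron genes 4 lay above and 1 below. Fth1, the ferritin heavy chain that stores iron, read 2095 and 2593 CPM in sham and 5140, 3335 and 6249 CPM in injured libraries, a difference of 1.07 ± 0.39. For 21 ribosomal protein genes 6 lay above and 0 below, with a median of 0.28 and 0 at an unadjusted p under 0.05. For 25 genes of the interferon response and MHC class I 2 lay above and 2 below, and for 21 immediate early genes 1 lay above and 0 below. The median of the immediate early list was -0.29, and it was -0.716 without sham 2 and 0.338 without sham 1.

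**Figure D3:**
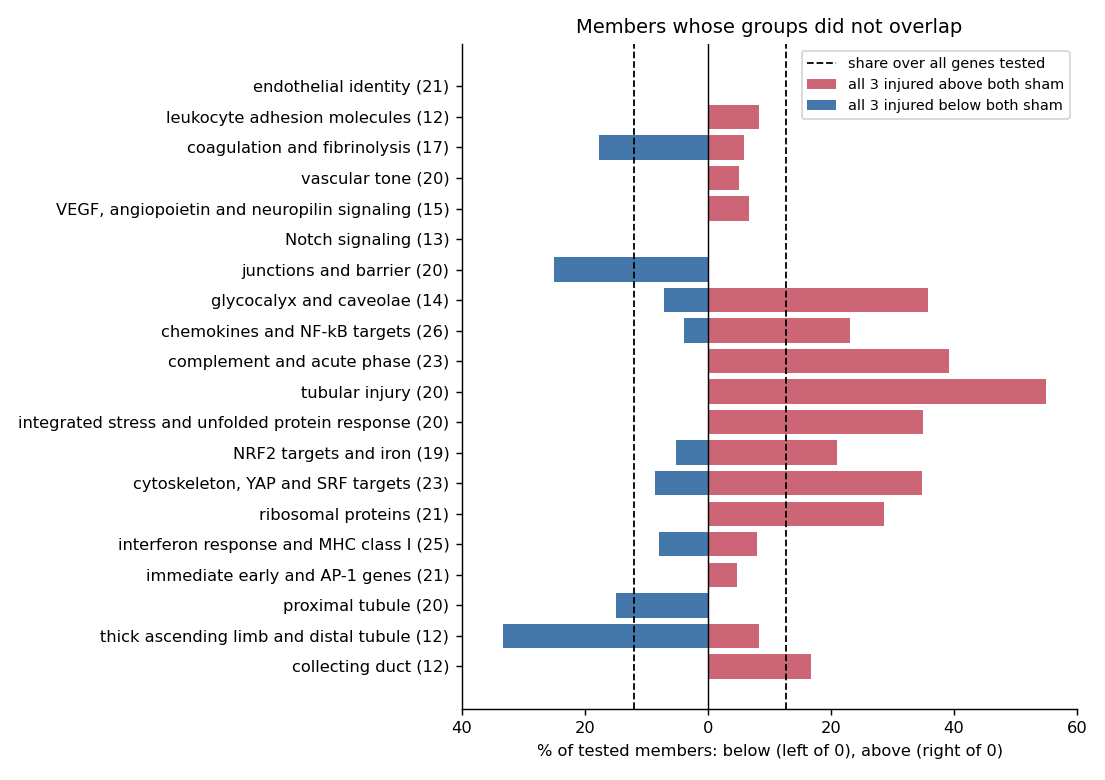
Share of the tested members of 20 gene lists (number in parentheses) for which all 3 injured libraries lay above both sham libraries (red, to the right) or below both (blue, to the left). Dashed lines give the shares over all 19910 genes, 12.7% above and 12% below, and the tubular injury and complement lists reach 11 of 20 and 9 of 23 members above.

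Markers of other cells moved in part with the groups. Of 12 thick ascending limb and distal markers 4 lay below sham and 1 above, and the list summed to 20940 and 17470 CPM in sham and to 15110, 15550 and 13610 CPM in injured libraries. Slc12a1, the sodium-potassium-chloride cotransporter of that segment, read 3616 and 2679 CPM in sham and 1806, 2072 and 1280 CPM in injured libraries, a difference of -0.87 ± 0.45, whereas Umod differed by -0.03 ± 0.31. Of 12 collecting duct markers 2 lay above and 0 below. Slc26a4, the pendrin of intercalated cells, read 10.5 and 28.8 CPM in sham and 47.1, 50.9 and 82.0 CPM in injured libraries, a difference of 1.61 ± 0.50, and the list summed to 446.9 and 896.4 CPM in sham and 787 to 1510 CPM in injured libraries. The water channel Aqp2, which defines principal cells, overlapped between the groups at 154.1 and 328.0 CPM in sham and 272.2 to 574.4 CPM in injured libraries. How far these segments contributed to genes such as S100g was not tested.

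Among non-epithelial cells, 5 of 12 mural markers lay above sham and 0 below, led by Rgs5 of pericytes at 12.4 and 16.5 CPM in sham and 33.1, 22.2 and 23.6 CPM in injured libraries. The mural list summed to 240.9 and 396 CPM in sham and 216.4 to 383.1 CPM in injured libraries, so the sum did not separate the groups. Of 7 fibroblast markers tested 3 lay above and 0 below, led by Dcn, the collagen-binding decorin, at 0.201 and 0.373 CPM in sham and 1.27, 1.43 and 1.60 CPM in injured libraries. DESeq2 called Dcn with an adjusted p of 0.0362, its only pass in 19 alternatives. The fibroblast list summed to 78.01 and 112.8 CPM in sham and 109.5 to 148.8 CPM in injured libraries. Of 14 macrophage and dendritic cell markers 3 lay above and 0 below, led by Cd14, the lipopolysaccharide co-receptor, at 8.89 and 8.61 CPM in sham and 45.4, 11.0 and 25.2 CPM in injured libraries. That list summed to 55.58 and 87.75 CPM in sham and 83.6 to 118.4 CPM in injured libraries, with a median log2 difference of 0.106. Neither of these sums separated the groups. The list of 10 tested neutrophil genes summed to 8.62 and 7.00 CPM in sham and to 54.7, 14.0 and 59.2 CPM in injured libraries, of which Lcn2 alone gave 41.9, 6.98 and 55.0 CPM in the injured ones. The neutrophil granule genes S100a8 and Mmp8 were at most 3.11 and 0.644 CPM in any library. The part of these cells in the list counts was not tested.

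Whether females and males responded differently was tested as the difference of their log2 changes in the same fit. No gene passed with edgeR, the smallest adjusted p was 0.45, and 1294 genes (6.5%) had an unadjusted p under 0.05, 645 toward females (3.24%) and 649 toward males (3.26%). DESeq2 called 62 genes, 31 each way, and edgeR without the filter on low counts called 44. In the males alone 172 genes (0.864%) passed the injury test, and this difference in the number of calls was not itself tested. The genes with the smallest p for a more positive change in females included S100g, C4b, Degs2 (a sphingolipid desaturase), Ttc36, H2-DMb2 (a chaperone of MHC class II loading) and Hsd17b6, a steroid dehydrogenase. S100g stood at 88.9 ± 4.79 CPM (SD, n = 2) in sham and 302.6 ± 134.6 (n = 3) in injured females, and at 185.7 ± 32.4 and 133.6 ± 19.9 (n = 3 each) in males. The female minus male difference of S100g was 2.24 ± 0.47, with an adjusted p of 0.66 with edgeR and 0.00828 with DESeq2.

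C4b stood at 1.62 ± 0.92 CPM (n = 2) in sham and 7.19 ± 1.73 (n = 3) in injured females, against 49.3 ± 22.4 and 27.1 ± 8.41 (n = 3 each) in males. The sham level of C4b was thus lower in females than in males in every library, at 0.969 and 2.27 against 30.2 to 73.9 CPM. The female minus male difference of changes was 2.26 for Degs2, 2.22 for Ttc36 and 2.50 for H2-DMb2. Degs2 averaged 11.3 CPM in sham and 22.8 CPM in injured females, against 123.5 and 52.0 CPM in males. Ttc36 averaged 349.6 and 349 CPM in females, against 424.2 and 90.7 CPM in males. H2-DMb2 averaged 5.04 and 9.24 CPM in females, against 21.9 and 7.07 CPM in males. Hsd17b6 had no read in the injured males and 0.804 to 2.06 CPM in the sham males, so its fitted difference is no bound, while it stood at 4.74 to 5.67 CPM in sham and 0.92 to 4.63 CPM in injured females.

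The genes with the smallest p for a more positive change in males included Mt2, a metal-binding metallothionein, Nek6, a mitotic kinase, Tacc2, a centrosome protein, Anxa3, an annexin, Mvp, the major vault protein, and Mcm4 of the replicative helicase. Mt2 was at 24.6 to 36.6 CPM in sham and 28.5 to 55.4 CPM in injured females, against 23.7 to 31.9 and 237 to 1256 CPM in males, a difference of -3.78 ± 0.84. Mcm4 was at 9.48 to 10.5 and 10.5 to 11.7 CPM in females, against 7.57 to 9.44 and 21.3 to 28.1 CPM in males, a difference of -1.35. Tacc2 differed by -2.01, Nek6 by -2.78, Anxa3 by -1.97 and Mvp by -1.36. Lcn2 differed by -3.59 and Icam1 by -2.16 in the same direction. Proximal tubule markers summed to 28560 to 61000 CPM in sham and to 17900 to 25650 CPM in injured males, with no overlap, against overlapping sums in females. Their part in these differences was not tested.

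**Figure D4:**
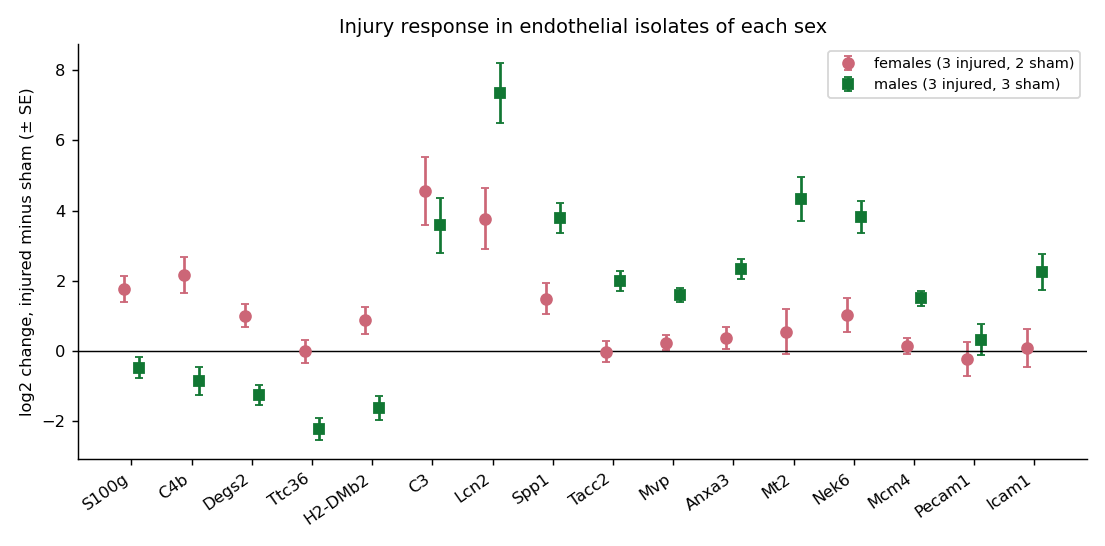
Log2 change of injured minus sham endothelial isolates, with the SE of the fit, for 16 genes in females (circles) and males (squares). S100g and C4b lie above 0 in females and below 0 in males, and Mt2 lies at 0.55 in females and 4.33 in males, while none of the differences passed at an adjusted p under 0.05 with edgeR.

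The same injury in the microdissected tubules of females gave a response that differed from that of the endothelial isolates in 1 gene of 21206 (0.00472%) with edgeR, and 1273 genes (6%) had an unadjusted p under 0.05. That gene was Gvin1, an interferon-inducible GTPase of a family with near-identical copies, between which reads can be split. It stood at 13.4 to 20.9 CPM in sham and 4.35 to 11.6 CPM in injured endothelial isolates, and had 0 reads in the 3 sham tubule libraries against 526 reads in the injured ones, at least 147-fold higher against the floor of 3 reads. The fitted difference was -11.63 ± 1.65 with an adjusted p of 0.0394, and RLE scaling in place of TMM gave 0.0518, within a range of 1.04e-08 to 0.201 over 17 alternatives. With only the 11 female libraries in the fit 191 genes passed, 190 of them with the lower change in endothelial isolates. With the title number as a block in those libraries, for the case that same-numbered libraries share a mouse, 85 genes passed, all in that direction, and Gvin1 had an adjusted p of 0.0172. DESeq2 called 66 genes, 7 in the positive and 59 in the negative direction.

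The genes that followed on the negative side were Ipcef1, Casr, Susd4, Pygl and Gcgr. On the scale common to endothelial isolates and tubules, Casr, the calcium-sensing receptor prominent in the thick ascending limb, was at 122.3 to 142.0 CPM in sham and 34.1 to 92.8 CPM in injured endothelial isolates, and at 16.9 to 19.4 and 57.5 to 62.5 CPM in tubules. Its level was therefore higher after injury in every tubule library and lower in every endothelial isolate, and the difference of changes was -2.85. Umod, of the same segment, was at 8068 to 10090 CPM in sham and 8297 to 9087 CPM in injured endothelial isolates, against 816.8 to 1260 and 3968 to 5338 CPM in tubules. On the positive side stood Trf, the iron carrier transferrin, at a difference of 2.33, with 0.806 and 1.44 CPM in sham and 3.00 to 8.54 CPM in injured endothelial isolates. Pcgf6, a Polycomb protein, and the ribosomal genes Rpl27 and Rps12 differed by 1.16, 1.43 and 1.21. C3 did not pass, with changes of 4.55 in the endothelial isolates and 2.69 in the tubules.

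The authors' deposited table lists 57 genes with an adjusted p under 0.05, 44 with a positive and 13 with a negative log2 value, of which 40 had an unadjusted p under 0.05 in the summed counts and 31 were also called by DESeq2 on those counts. Its calls included C3, Lcn2, Car13, S100g, C4b, Smpdl3b, Sprr1a and Saa1. Of the log2 values in the authors' deposited table, 99.4% lie within 0.01 of 0. The gene with the smallest p in the authors' deposited table was Usp34, a large ubiquitin protease, with a log2 value of 2.16 and an adjusted p of 4.9e-13. Its reads did not follow that direction: Usp34 read 88.2 and 100.2 CPM in sham and 76.8, 95.8 and 36.9 CPM in injured libraries, a difference of -0.43.

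The values that moved with the deposited direction of Usp34 were lengths. Its level per length was 7.05 and 6.16 TPM in sham and 31.5, 39.8 and 22.6 TPM in injured libraries, with no overlap. The abundance-weighted effective length of the gene was 7008 and 7309 bases in sham and 1217, 1302 and 790 bases in injured libraries. The shorter lengths came with 1 transcript, Usp34-206, of 237 bases and an effective length of 16 bases. It was given 0 reads in both sham libraries and 33.5, 45.2 and 23.7 estimated reads in the injured ones, out of 3336, 4695 and 1566 for the gene. With the effective lengths as offsets edgeR gave Usp34 a difference of 2.24 ± 0.27 and an adjusted p of 0.0629. The transcript consists of 3 exons on the plus strand of chromosome 11 (GRCm38), at 23458077 to 23458159, 23459124 to 23459228 and 23460562 to 23460610. Its sequence in GENCODE M21 is shown because its reads separated the groups without overlap, with the 38 bases outside the exons of coding Usp34 transcripts in capitals and the shared bases in lower case. The part of this transcript in the deposited value was not tested.
Usp34-206: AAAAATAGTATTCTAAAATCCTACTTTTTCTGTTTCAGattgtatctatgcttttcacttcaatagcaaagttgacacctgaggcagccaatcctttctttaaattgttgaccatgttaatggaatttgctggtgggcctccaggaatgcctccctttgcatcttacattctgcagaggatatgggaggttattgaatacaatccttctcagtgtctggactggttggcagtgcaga

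The remaining bases lie in exons of coding transcripts, so reads there do not tell the transcripts apart by sequence alone. Ttf1, a factor of ribosomal gene termination, and Etf1, the translation release factor, also had opposite signs in the authors' deposited table (1.69 and -1.54) and in the counts (-0.17 and 0.18), and their mean effective lengths were 3759 against 920 bases and 379 against 1922 bases in sham and injured libraries. Of the 57 genes, 20 (35.1%) had a mean effective length that differed at least 2-fold between the groups, against 382 (1.92%) of all genes tested.

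**Figure D5:**
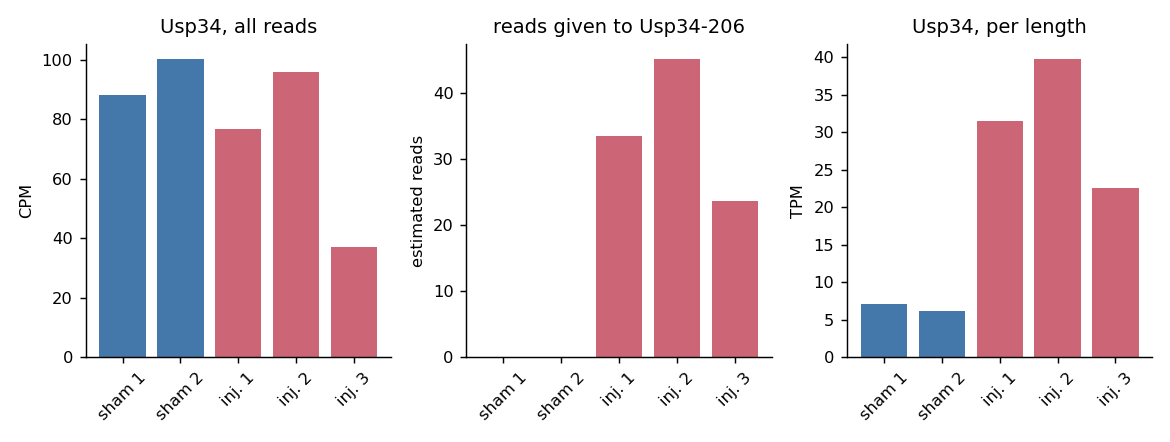
Usp34 in the 5 libraries: CPM from all its reads (left), estimated reads given to the 237-base transcript Usp34-206 (middle) and TPM (right), blue for sham and red for injured. CPM overlaps between the groups, while TPM is 6.16 to 7.05 in sham and 22.6 to 39.8 in injured libraries.

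Zc3h11a, a zinc finger protein of mRNA export, has 2 overlapping records on chromosome 1. One was at 69.0 and 57.0 CPM in sham and 36.4, 27.3 and 30.6 CPM in injured libraries, and the other was at 0 in sham and at 25.5, 34.1 and 34.0 CPM in injured libraries. Together they gave 69.0 and 57.0 CPM in sham and 61.9, 61.5 and 64.6 CPM in injured libraries, and the groups overlapped. In the female tubules the second record ranged from 0 to 47.8 CPM in sham and from 0 to 45.7 CPM in injured libraries. That record had the next smallest p in the authors' deposited table.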

How the data were processed

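Poly-A RNA of the isolates was sequenced on a NextSeq 500 after NEBNext Ultra II library preparation, per the labels' protocols. Per the submitters' processing notes, reads were quantified by the authors with Salmon 0.13.1 on GRCm38. The deposited files as the authors made them with Salmon give per transcript an estimated count (expected count), not normalized, a TPM and an effective length. The authors' deposited table for this comparison gives a base mean as signal, a log2 fold change, a p-value and an adjusted p-value per gene, and how these were made is not given in the sources used here beyond the statement, per the labels, that DESeq2 was used.

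Rounded gene sums were made of the estimated counts, for 53392 genes, of which 53355 had coordinates in GENCODE M21 (GRCm38). CPM are counts scaled to the TMM-normalized library size. Genes were filtered with filterByExpr (minimum count 10, minimum total 15). All 11 endothelial libraries were fitted with 1 mean per group in edgeR 4.0.16 (limma 3.58.1, R 4.3.3) by the quasi-likelihood test with Benjamini-Hochberg adjustment and a threshold of 0.05. Tubule comparisons used a second fit of all 23 libraries, after 2 technical libraries of 1 male tubule sample had been summed. SE is the log2 difference divided by the square root of F. P-values rest on the spread between libraries of the same group, estimated over all 11 endothelial libraries, or all 23 for the tubule comparisons. The code was tested on simulated data.

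Named genes were the 12 with the smallest p in each direction among coding genes with no overlap between groups and 5 CPM or more on average in the group that was higher, the 6 in each direction of each difference, up to 4 with the smallest p per list, and a set of endothelial, injury and control genes. Usp34, Ttf1, Etf1 and Zc3h11a's second record were chosen after their values were seen. One gene that the rule names is not reported here. Members and lists were chosen with earlier results of these data known. Alternatives were RLE scaling, no low-count filter, DESeq2 1.42.0, length offsets, fewer libraries, marker covariates, a replicate block and leaving out each library. A floor is 3 reads over a group. Intervals of counting error are not given for replicated values.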

Additional observations from a re-analysis of the deposited data

Results flagged for a closer look

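Gvin1 was the gene whose response to injury differed between endothelial isolates and tubules of females, by -11.63 ± 1.65 on the log2 scale with an adjusted p of 0.0394 in edgeR's interaction test. All injured endothelial isolates lay below sham, while the tubule sham libraries had no read and the injured ones had 526 in all. The fitted size depends on the prior count because a group is at 0. The adjusted p passed under 7 of 17 alternatives and ranged from 1.04e-08 to 0.201. It missed the threshold under RLE scaling and when any of these libraries was left out: endothelial sham 1, endothelial injured 1 or 3, or any of the 6 tubule libraries. Gvin1 overlaps the record Gm18853 on the same strand, and the part of shared reads was not tested.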

How the results depend on the processing

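The count of 0 called genes in the female endothelial comparison held under RLE scaling, length offsets and both marker covariates. It was 18 without the low-count filter, 33 with DESeq2 and 3 with only the 5 libraries fitted, and 0 to 5 when 1 library was left out, the fits of fewer libraries added after seeing the data included. For list members the count was 5 without the filter and 5 with DESeq2, and 0 to 3 leaving out 1 library. The difference between the sexes gave 44 genes without the filter, 62 with DESeq2 and 0 to 1 leaving out 1 library. The difference from tubules gave 0 with RLE scaling, 2 without the filter, 66 with DESeq2, 191 with only the 11 female libraries and 0 to 2 leaving out 1 library. The cause of these changes was not tested.

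With 1 library left out, the log2 difference ranged from -0.66 to 0.46 for Cdh5, -0.81 to 0.82 for Ehd3, -0.20 to 0.24 for Icam1, -0.86 to 0.42 for Kdr, -0.93 to 0.27 for Nos3, -0.66 to 0.40 for Pecam1, -0.38 to 0.66 for Plvap, -0.24 to 1.22 for Sele, -1.35 to 1.07 for Selp, -1.22 to 0.22 for Thbd and -0.16 to 0.11 for Umod. Outside these, Selp turned to 0.0635 with length offsets, Plvap to -0.0295 with the tubule covariate and Umod to 0.0179 with the endothelial covariate.

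It was not settled whether replicate or title numbers pair the libraries. Deviations of same-numbered sham and injured libraries from their group means correlated from -0.332 to 0.405. Those of libraries sharing a title number correlated from -0.0658 to 0.368. These values cannot decide on pairing, because libraries of unlike number were not compared and each group mean rests on few libraries. With the replicate number as a block 0 genes were called in the female comparison and 0 between the sexes, Selp turned to 1.08 and Plvap to -0.54, and with the title number as a block in the 11 female libraries 85 genes differed from tubules, against 191 without it. Differences several times their SE, such as 1.72 ± 0.32 for Car13, did not pass the adjusted test in this design.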

Other observations

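Of the gene groups not described above, some had more members above the sham range than the 12.7% of all genes, and others did not. Over all genes 12% lay below. Of 17 lysosome and autophagy genes 5 lay above sham in all injured libraries and 2 below, of 27 cell cycle and replication genes 6 lay above and 1 below, and of 25 records of hypoxia and glycolysis genes 5 lay above and 2 below. Of 17 kidney genes known for higher levels in males 5 lay above and 0 below, with a median of 0.642 on the log2 scale that was 0.238 without sham 1 and 0.794 without sham 2. Of 8 MHC class II genes 1 lay above and 3 below, and of 20 cell death genes 4 lay above and 1 below. Of 14 heat shock genes 2 lay above and 0 below, and of 12 arterial endothelial markers 0 lay above or below. The medians of the lysosome, cell cycle and hypoxia lists were 0.148, 0.149 and 0.174. None of the members of these lists passed the adjusted test with edgeR.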
